A study of Homo sapiens with 2 samples.

Results

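Chromosome 8 was examined in DNase I hypersensitivity maps of Saos-2 and U2OS, a pair of established human cell lines grown from osteosarcomas, the bone-forming tumours of the skeleton. Its members are all hotspots, the regions in which DNase I cut more often than the surrounding background, that the authors placed on chromosome 8 of hg38. They were chosen by their position alone, but the chromosome was picked because an earlier look at these lists had shown more U2OS than Saos-2 hotspots on it. The number of hotspots on chromosome 8 is therefore described and not tested. The rule found 2077 of the 51556 Saos-2 hotspots and 3415 of the 63388 U2OS hotspots.

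DNase I reaches DNA best where nucleosomes are absent, so its cuts mark promoters, enhancers, insulators and other sites held open by bound proteins. Promoter sites are shared widely among cell types, whereas distal sites differ more from one cell type to another. The short arm of chromosome 8 carries the death receptor genes, the defensin genes, FGFR1 and several genes that restrain growth. On the long arm lie MYC, the matrix and cartilage genes around EXT1, TRPS1 and TNFRSF11B, and a gene-rich end. Loss of short-arm and gain of long-arm material are common in solid tumours, osteosarcoma included. Saos-2 lacks functional p53 and RB1 proteins, and U2OS retains both genes.

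Each line was represented by 1 library, so there is no replicate error. Nuclei of both lines had been incubated with limiting DNase I for 3 min at 37 °C, and their libraries had been amplified by 8 to 10 PCR cycles. Neither library came with a treatment, a clone name or a passage number in the labels. The depth of the libraries is unknown, and a difference in depth between libraries cannot be told apart from a difference in accessibility. DNA copy number was not analysed here, and regional differences in it cannot be told apart from differences in accessibility either. Intervals below are 95% Wilson counting intervals, which cover counting error only. Marker genes of cell types were also looked up. Of 6 mesenchymal and osteoblast markers, 3 had a hotspot within 1 kb of an end in Saos-2 and 4 in U2OS. RUNX2, the master regulator of osteoblasts, SPARC and VIM had one in both lines, and COL1A1 in U2OS only. COL1A2 and TWIST1 had none. Of 6 epithelial markers, none had one in Saos-2, whereas the keratin genes KRT8 and KRT18 had one in U2OS. Of 6 blood and 6 neuronal markers, CD3E, SPI1 and SYP had one in each line. Among 19259 protein-coding genes of the other chromosomes, 43.0% had one in both lines, 5.18% in Saos-2 alone and 10.3% in U2OS alone. The mesenchymal and osteoblast counts lie near these general shares, so they do not identify the lines.

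Against the other chromosomes pooled, hotspots were sparser on chromosome 8 in Saos-2 and denser in U2OS. Density was not compared chromosome by chromosome, so neither value is read as particular to chromosome 8. Saos-2 had 14.3 hotspots per Mb on chromosome 8 and 17.1 per Mb on the other autosomes and X. U2OS had 23.5 per Mb on chromosome 8 and 20.8 per Mb elsewhere. The chromosome thus held 4.03% of the Saos-2 list (interval 3.86 to 4.20%) and 5.39% of the U2OS list (5.21 to 5.57%). The number ratio of U2OS to Saos-2 was 1.64 on chromosome 8 and 1.21 over the other chromosomes. Dividing the first ratio by the second gives a centred ratio, which was 1.36-fold, or 0.44 on the log2 scale (interval 0.36 to 0.52). On the 22 other chromosomes the same centred log2 value ran from -0.47, on chromosome 21, to 0.24, on chromosome 18. Hotspots of chromosome 8 covered 557 kb in Saos-2 and 958 kb in U2OS. Saos-2 hotspots of the chromosome had a median width of 231 bp, and those of U2OS 250 bp, close to the 239 and 248 bp found elsewhere. The widest Saos-2 hotspot spanned 1205 bp and the widest U2OS hotspot 1513 bp.

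The excess was steeper on the short arm, 8p, than on the long arm, 8q. The arms were divided at 45 Mb, a position inside the centromere. On 8p there were 440 Saos-2 and 1002 U2OS hotspots, that is 9.78 and 22.3 per Mb. On 8q there were 1637 and 2413, that is 16.4 and 24.1 per Mb. The U2OS density was therefore nearly level between the arms, while the Saos-2 density on 8p was lower than on 8q. The centred log2 ratio was 0.91 (interval 0.75 to 1.07) on 8p and 0.28 (0.19 to 0.37) on 8q, and these intervals did not overlap. In fold terms the values were 1.88 and 1.22.

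Along the chromosome, hotspots were counted in 29 windows of 5 Mb, the last of which ran to 145.1 Mb. Saos-2 windows held between 7 and 187 hotspots with a median of 55. U2OS windows held between 28 and 252 with a median of 101. In the 560 windows counted elsewhere the medians were 85 in Saos-2 and 104.5 in U2OS. The median U2OS window was thus close to that elsewhere, and the median Saos-2 window was sparser. On chromosome 8 U2OS had more hotspots in 25 windows, Saos-2 in 3, and the numbers were equal in 1. Nearly every window of 8p had the U2OS excess, with the window next to the centromere as the exception.

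**Figure D1:**
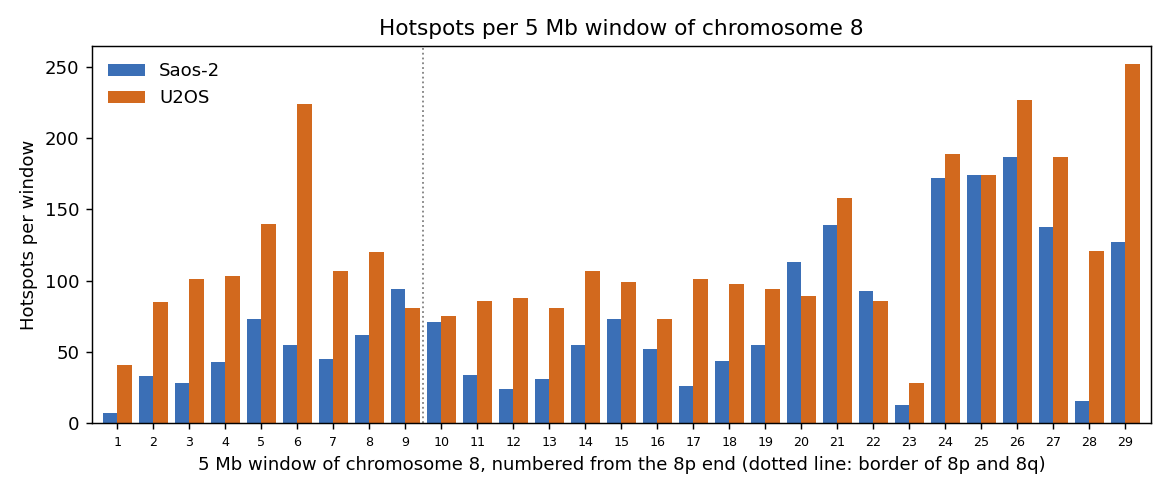
Number of Saos-2 (blue) and U2OS (orange) hotspots in each 5 Mb window of chromosome 8, with windows numbered from the short-arm end and 1 library per line. U2OS bars stand above the Saos-2 bars in 25 of 29 windows, and window 6 holds 55 Saos-2 and 224 U2OS hotspots.

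The outermost 5 Mb of 8p had 7 Saos-2 and 41 U2OS hotspots. From 5 to 10 Mb the numbers were 33 and 85, and from 10 to 15 Mb they were 28 and 101. These windows hold CSMD1, the defensin genes and DLC1, and had centred log2 values of 2.27, 1.09 and 1.57. From 15 to 20 Mb there were 43 and 103 hotspots, and from 20 to 25 Mb, where the death receptor genes lie, there were 73 and 140. The window from 25 to 30 Mb held 55 Saos-2 and 224 U2OS hotspots, a centred log2 ratio of 1.75 (interval 1.32 to 2.17). It had the most U2OS hotspots of any 8p window. From 30 to 35 Mb there were 45 and 107, and from 35 to 40 Mb, around FGFR1, there were 62 and 120. The pattern turned from 40 to 45 Mb, where Saos-2 had 94 hotspots and U2OS 81 (log2 -0.49, interval -0.92 to -0.07).

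On 8q the windows alternated between excess and parity. The first, from 45 to 50 Mb, had 71 Saos-2 and 75 U2OS hotspots. The 4 windows from 50 to 70 Mb together had 144 and 362, a centred ratio of 2.07-fold. From 70 to 80 Mb the numbers were 125 and 172, close to the ratio elsewhere. From 80 to 90 Mb they were 70 and 199, or 2.34-fold after centring. The window from 90 to 95 Mb had 55 and 94. Saos-2 had the higher number from 95 to 100 Mb, with 113 hotspots against 89 (log2 -0.62, interval -1.02 to -0.22).

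Distal 8q was near parity up to 135 Mb, apart from 1 sparse window. From 100 to 110 Mb there were 232 Saos-2 and 244 U2OS hotspots. The window from 110 to 115 Mb, in which 1 protein-coding gene begins, had only 13 and 28. It passed the threshold given below towards U2OS at 1.78-fold, but its log2 interval of -0.10 to 1.76 spans 0. From 115 to 135 Mb, a span that includes EXT1, TNFRSF11B, MYC and PVT1, there were 671 and 777 hotspots, and the centred log2 ratio was -0.07 (interval -0.22 to 0.08). Saos-2 reached its highest window number of the chromosome here, with 187 hotspots from 125 to 130 Mb, and U2OS had 227 in that window. The excess returned abruptly from 135 to 140 Mb, with 16 Saos-2 and 121 U2OS hotspots. Its centred log2 ratio of 2.64 (interval 1.90 to 3.38) was the highest of the 29 windows, and none of the 560 windows counted elsewhere exceeded it. The gene-rich last window had 127 and 252.

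A window was counted as past the threshold where it held at least 20 hotspots of both lines together and its centred ratio reached 1.5-fold. Towards U2OS 17 of 29 windows did so, 8 of 9 on 8p and 9 of 20 on 8q, beside 14.1% of 560 windows on the other chromosomes. Towards Saos-2 there was 1 window of 29, beside 10% elsewhere. Since the chromosome was picked for its excess, these counts describe where the excess lay and are no test of it. The windows just inside the threshold were 20 to 25 Mb at 1.58-fold and 35 to 40 Mb at 1.60-fold, and those just outside were 90 to 95 Mb at 1.41-fold and 75 to 80 Mb at 1.16-fold. Towards U2OS no window lay between 1.41-fold and 1.58-fold.

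**Figure D2:**
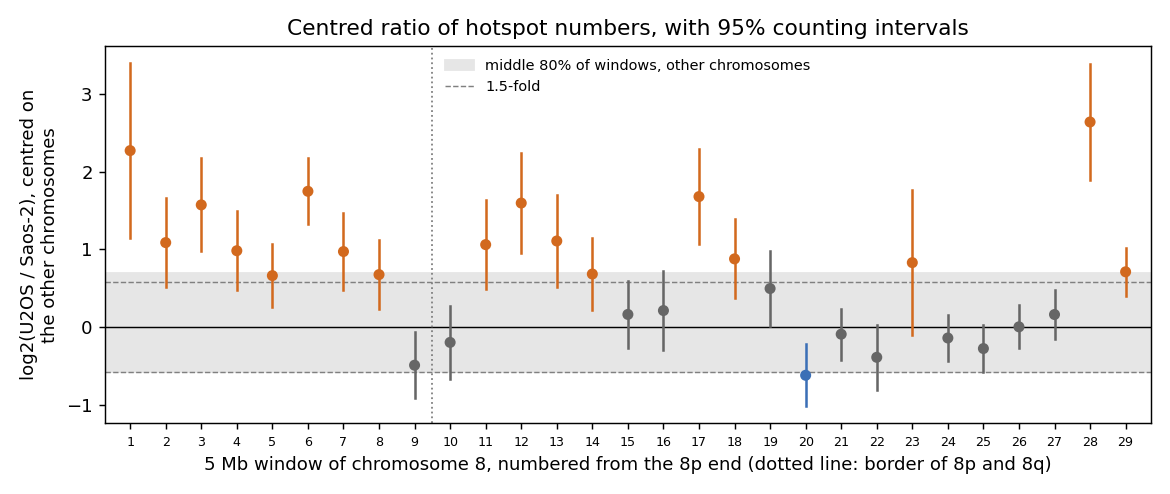
Centred log2 ratio of U2OS to Saos-2 hotspot numbers in each 5 Mb window, with 95% counting intervals. The grey band spans the middle 80% of windows on other chromosomes and the dashed lines mark 1.5-fold; 17 windows lie past the upper line (orange) and 1 past the lower line (blue).

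The excess was spread over many windows, with a small set in the lead. It was measured as the U2OS number minus 1.21 times the Saos-2 number, the value that the other chromosomes would give. The measure is relative, so few Saos-2 hotspots raise it as many U2OS hotspots do. Over 22 windows it was positive and summed to 1082 hotspots, and over 7 windows it was negative and summed to -186. The window from 25 to 30 Mb led with 157 hotspots, or 14.5% of the positive sum. Next came 135 to 140 Mb with 102 (9.39%) and the last window with 97.9 (9.05%). The window from 80 to 85 Mb followed with 69.5, and that from 10 to 15 Mb with 67.0. These 5 windows held 45.6% of the positive sum. By arm, 8p held 46.3% of it and 8q 53.7%, although 8p has only 9 of the 29 windows. The lowest values were -48.1 from 95 to 100 Mb, -37.1 from 120 to 125 Mb and -33.0 from 40 to 45 Mb.

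Overlap was then used to separate sites open in both lines from sites called in 1 line. Of the Saos-2 hotspots on chromosome 8, 1273 (61.3%, interval 59.2 to 63.4%) shared at least 1 bp with a U2OS hotspot. The remaining 804, or 38.7%, were Saos-2-specific, beside 42% elsewhere. Of the U2OS hotspots 1254 (36.7%, 35.1 to 38.4%) were overlapped and 2161, or 63.3%, were U2OS-specific, beside 52.5% elsewhere. Chromosome 8 had the lowest overlapped share of U2OS hotspots of all 23 chromosomes compared, as the others ran from 39.1% to 57.5%. Its Saos-2 share lay within their range of 43.5 to 66.7%. Overlap pairs hotspots nearly one to one, so the overlapped numbers of the lines are close by construction, and a larger U2OS list must add to the specific class. The low U2OS share therefore restates the excess in number. Overlapped shares depend on the length of the other list, and shares of the lines are not directly comparable.

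The arms also differed in their U2OS-specific sites. On 8p there were 152 Saos-2-specific and 725 U2OS-specific hotspots, so that 72.4% of the U2OS hotspots of this arm had no Saos-2 counterpart. On 8q there were 652 and 1436, and 59.5% of the U2OS hotspots were specific. The share of Saos-2 hotspots that U2OS overlapped was 65.5% on 8p (interval 60.9 to 69.7%) and 60.2% on 8q (57.8 to 62.5%), and these intervals overlap. In the 17 windows past the threshold towards U2OS, 1392 of 1883 U2OS hotspots were specific, against 211 of 716 Saos-2 hotspots. In the 11 windows past it in neither direction, 728 of 1443 and 530 of 1248 were. Those 17 windows held 55.1% of the U2OS hotspots of the chromosome and 34.5% of the Saos-2 hotspots. As windows were grouped by the number ratio, their specific shares and these percentages follow largely from that grouping. The higher U2OS-specific share on 8p likewise goes with its higher number ratio.

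**Figure D3:**
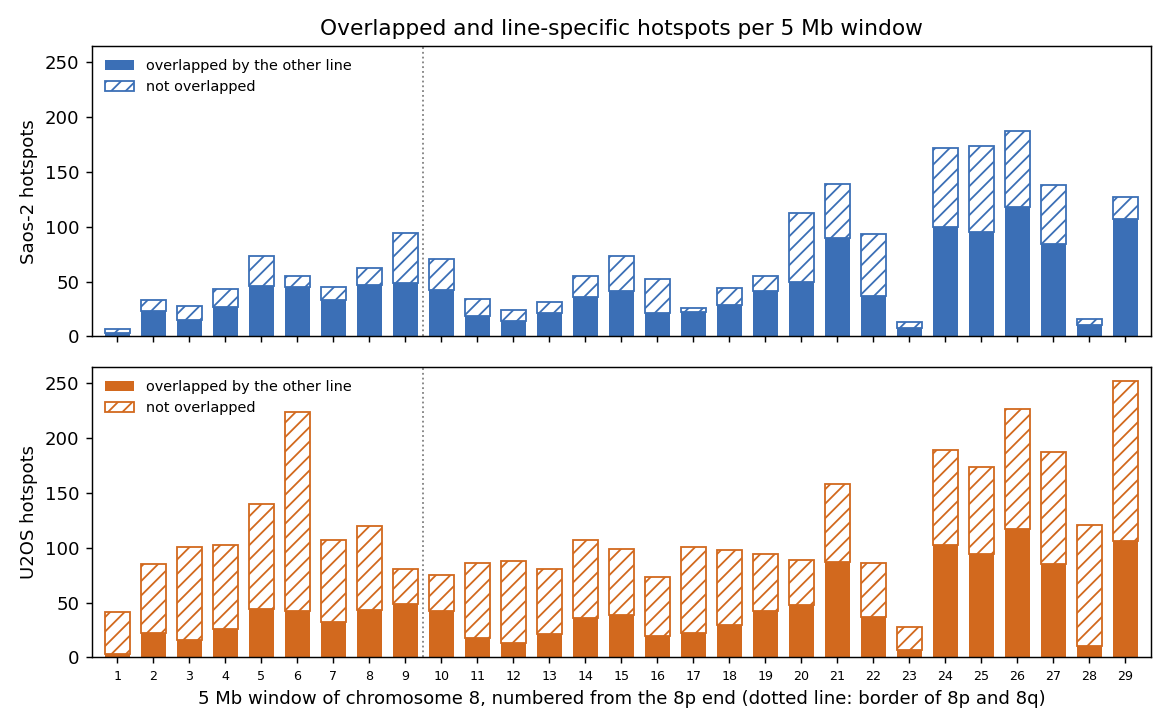
Hotspots of Saos-2 (upper panel) and U2OS (lower panel) per 5 Mb window, divided into those overlapped by the other line (filled) and those without overlap (hatched). In window 28 the U2OS bar is almost wholly hatched, with 111 of 121 hotspots specific, whereas 86 of 189 are in window 24.

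Window by window, the specific share of U2OS hotspots ranged widely. From 135 to 140 Mb 111 of 121 U2OS hotspots (91.7%) were specific, and in the outermost window of 8p 38 of 41 were (92.7%). From 25 to 30 Mb the number was 182 of 224 (81.2%). At the other end, 32 of 81 (39.5%) were specific from 40 to 45 Mb, and 33 of 75 (44%) from 45 to 50 Mb. The Saos-2-specific share ran differently and was highest from 105 to 110 Mb, with 56 of 93 (60.2%). It was lowest from 80 to 85 Mb, with 4 of 26 (15.4%), and in the last window, with 20 of 127 (15.7%).

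The strongest line-specific sites were mostly distal. Strength is given here as the authors' −log10 significance, a value for each hotspot that is capped at 100. It is a measure of the call, and its dependence on depth and DNA copy number was not tested. In U2OS the leading site, chr8:29804013-29804703, had a significance of 100. It lies outside annotated genes, 258 kb from SARAF, a regulator of store-operated calcium entry. Further sites of 56.3 at chr8:29770410-29770914, inside the non-coding gene LINC02099, and of 55.9 at chr8:29555258-29555889 lie on the same side of SARAF. These sites belong to the window with the largest excess. The next U2OS sites by strength were chr8:139215162-139216269, with 76.4, and chr8:141568488-141568891, with 59.6, and neither overlapped a gene. The nearest Saos-2 hotspots to these 5 sites were between 47.2 and 221 kb away.

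The 5 leading Saos-2-specific sites all lay on distal 8q, in the windows from 110 to 130 Mb. The first, chr8:118256768-118257474, had a significance of 52.7 and lies inside SAMD12. Those at chr8:116155423-116155949 (40.2) and chr8:114941051-114941522 (36.4) lie in the non-coding genes LINC00536 and LOC107986901, on either side of TRPS1, which encodes a zinc finger repressor of cartilage and bone growth. A site of 35.5 at chr8:128015857-128016858 lies in PVT1, the long non-coding gene next to MYC, and a U2OS hotspot was only 0.954 kb away. The last of these, chr8:120562258-120562964 with 31.4, lies inside SNTB1, which encodes a syntrophin of the dystrophin complex. None of these 10 sites of either line was within 1 kb of a protein-coding gene end.

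Runs of consecutive hotspots from the same line, ordered by start and with no start of the other line between them, were longer in U2OS. The hotspots at a run's edges can overlap the other line. Runs of at least 10 numbered 35 in U2OS, with 555 hotspots, and 1 in Saos-2, with 10 hotspots from 106889072 to 107223617. The longest U2OS run had 33 hotspots from 138740169 to 139405963, from within COL22A1 to beyond its higher-coordinate end. The next had 28 hotspots from 2885763 to 6406685, across CSMD1 and into MCPH1, whose product acts in chromosome condensation. The second Saos-2 run had 8 hotspots from 43199253 to 43276405 and reached HGSNAT, a lysosomal enzyme gene. Run length depends on the number of hotspots in each list, so longer U2OS runs accompany the larger U2OS number.

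Hotspots at gene ends, meaning no more than 1 kb from the first or last base of a protein-coding gene, were compared with the rest. Strand and transcription starts were not used, so gene ends include 3′ ends. Gene-end hotspots made up 320 of the Saos-2 hotspots of the chromosome (15.4%, interval 13.9 to 17.0%) and 475 of the U2OS hotspots (13.9%, 12.8 to 15.1%). Elsewhere the shares were 20.5% and 18.6%. The U2OS excess was close in size in both classes: the centred log2 ratio was 0.43 at gene ends (interval 0.22 to 0.63) and 0.43 away from them (0.35 to 0.52), each centred on the same class elsewhere. On 8p it was 0.70 at gene ends (0.30 to 1.10) and 0.94 away from them (0.76 to 1.12). On 8q the values were 0.33 (0.09 to 0.56) and 0.26 (0.17 to 0.36). Whether the classes differ on either arm was not tested.

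Gene-end sites were more often shared, as they were elsewhere. In Saos-2 82.8% of gene-end hotspots (interval 78.3 to 86.6%) and 57.4% of the others (55.0 to 59.7%) were overlapped by U2OS. In U2OS 54.3% (49.8 to 58.7%) and 33.9% (32.2 to 35.6%) were overlapped by Saos-2. On the other chromosomes the U2OS shares were 70.9% and 42.1%, so U2OS hotspots of both classes were shared less on chromosome 8. The Saos-2 shares elsewhere were 79.8% and 52.4%, below those on chromosome 8. Since overlapped numbers of the lines are close by construction, both shifts largely restate the U2OS excess in number. On 8p the U2OS gene-end share was 42.1% (34.3 to 50.4%). U2OS-specific gene-end hotspots numbered 217 on the chromosome and Saos-2-specific ones 55. Gene-end hotspots also had the higher median significance, 4.71 against 3.93 in Saos-2 and 6.37 against 4.64 in U2OS.

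Hotspots were also grouped by their position relative to genes. Hotspots outside all annotated genes numbered 623 in Saos-2 and 1242 in U2OS, a centred log2 ratio of 0.56 (interval 0.42 to 0.70). Those inside protein-coding genes and away from their ends numbered 749 and 1141, with a ratio of 0.42 (0.29 to 0.55). On 8q the ratio was 0.49 (0.33 to 0.65) outside genes and 0.19 (0.03 to 0.34) inside protein-coding genes. On 8p it was 0.80 (0.51 to 1.09) outside genes and 0.97 (0.72 to 1.22) inside. On both arms these intervals overlap, and no order of the classes is read from them. Hotspots inside other genes only, mostly non-coding RNA genes and pseudogenes, were in excess on 8p at 1.23 (0.75 to 1.71) and not on 8q at -0.10 (-0.31 to 0.11). Of the U2OS-specific hotspots on 8q, 45.1% (42.5 to 47.6%) were outside genes, compared with 36.5% on other chromosomes and 32.7% on 8p.

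**Figure D4:**
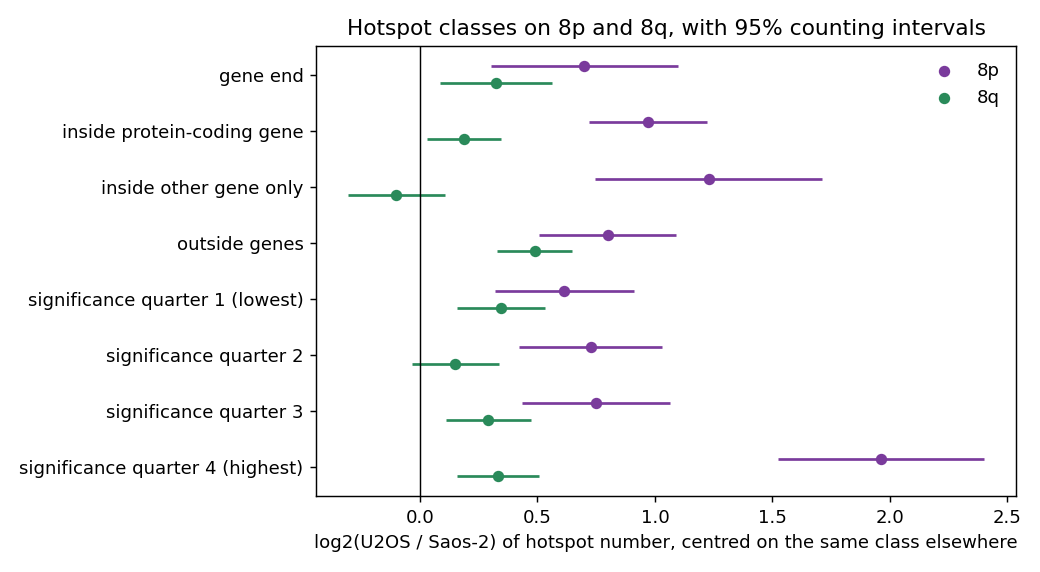
Centred log2 ratio of U2OS to Saos-2 hotspot numbers on 8p (purple) and 8q (green) for hotspots grouped by position relative to genes and by significance band, from weakest to strongest in each list, with 95% counting intervals. Values on 8p lie right of those on 8q in each class, and the strongest band on 8p stands at 1.96.

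Significance showed few strong Saos-2 sites on 8p. Each list was divided by significance into 4 bands of equal number. The strongest band of the Saos-2 list had 50 hotspots on 8p and its weakest band 141. For U2OS the numbers were 235 and 262, nearly even. The centred log2 ratio on 8p was 0.61 (interval 0.32 to 0.91) in the weakest bands and 1.96 (1.52 to 2.40) in the strongest. On 8q it was 0.34 (0.16 to 0.53) and 0.33 (0.16 to 0.51). Median significance on 8p was 3.30 in Saos-2 and 4.36 in U2OS, and on 8q it was 4.24 and 4.98.

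Sites called in both lines also differed in significance. There were 1178 pairs on chromosome 8 in which 1 hotspot of each line overlapped only the other. Their median significance was 5.02 in Saos-2 and 8.55 in U2OS, and the median log2 ratio within pairs was 0.68. On the other chromosomes 26494 pairs had medians of 5.41 and 7.20 and a median log2 ratio of 0.37. U2OS had the higher value in 70.3% of pairs on chromosome 8 (interval 67.6 to 72.8%) and in 62.4% elsewhere. On 8p it was higher in 203 of 258 pairs (78.7%, 73.3 to 83.2%), and on 8q in 625 of 920 (67.9%, 64.8 to 70.9%). Chromosome 8 ranked above 20 of the 22 other chromosomes in both measures, and chromosome 22 was highest with a median log2 ratio of 0.89. In this quantity the gene-end pairs of chromosome 8 stood at 0.79 and the other pairs at 0.61.

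Windows with a higher number ratio towards U2OS also had higher U2OS significance in shared sites. Across the 17 windows past the threshold towards U2OS, U2OS was the stronger in 384 of 463 pairs (82.9%, interval 79.2 to 86.1%), with a median log2 ratio of 1.14. Across the 11 windows past it in neither direction it was so in 417 of 669 (62.3%, 58.6 to 65.9%), at 0.39, which is close to the other chromosomes. Over 28 windows with at least 5 pairs, Pearson's r between the number ratio and the median pair ratio was 0.78 and Spearman's coefficient was 0.81. This is a description across windows of the same libraries, which share depth and calling, and the grouping of windows came from the same hotspots. From 25 to 30 Mb U2OS was the stronger in 37 of 39 pairs, and from 135 to 140 Mb in 10 of 10. From 115 to 120 Mb it was the stronger in only 45 of 91.

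**Figure D5:**
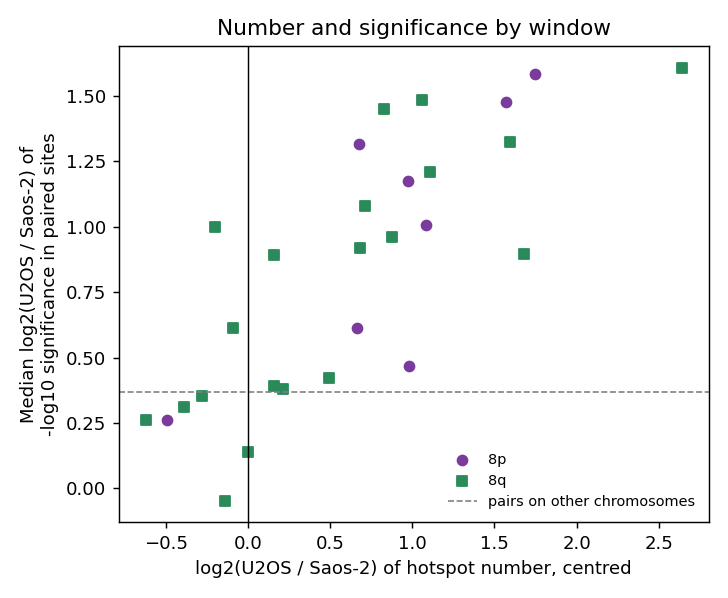
Each point is a 5 Mb window of 8p (circles) or 8q (squares) with at least 5 paired sites: the x axis gives the centred log2 ratio of hotspot numbers and the y axis the median log2 ratio of −log10 significance in paired sites. Windows with a higher number ratio have stronger U2OS values in shared sites; the dashed line is the median of 0.37 on other chromosomes.

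At the level of genes, U2OS had the larger number of hotspots around many genes on both arms. The chromosome has 715 protein-coding genes, and 274 of them carried a gene-end hotspot in each line. A further 128 (17.9%) carried one in U2OS alone, beside 10.3% elsewhere, and 19 (2.66%) in Saos-2 alone, beside 5.18% elsewhere. On 8p 56 of 292 genes carried one in U2OS alone and 9 in Saos-2 alone. Counting all hotspots in a gene or within 10 kb of it, 360 genes (50.3%) had more in U2OS, beside 37% elsewhere. Saos-2 had more at 113 genes (15.8%), beside 25% elsewhere. The median difference was 1 hotspot on chromosome 8 and 0 elsewhere. Neighbouring genes share hotspots, so genes are not independent. The gene values that follow count hotspots within the gene or 10 kb of it.

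Genes of bone, cartilage and extracellular matrix were divided. Of 29 such genes on the chromosome, 15 had more U2OS hotspots, 11 had more Saos-2 hotspots and 3 had equal numbers, with a median difference of 1. The share towards U2OS, 51.7%, was close to the 50.3% of all genes of the chromosome, and the share towards Saos-2, 37.9%, stood above their 15.8%. However, 120 of all 715 genes had no hotspot in either line, whereas every listed gene had one. Among the 208 genes of windows past the threshold in neither direction, 30.3% had more in Saos-2. Whether the listed genes differ from other genes of the same windows was not tested. COL22A1 (138588235 to 138914041), a collagen of tissue junctions, had 1 Saos-2 hotspot and 15 U2OS hotspots. LOXL2 (23296897 to 23404120), which crosslinks collagen, had 3 and 12. CLU, the secreted chaperone clusterin, had 1 and 8, and hotspots at both of its ends in U2OS only. SULF1, which removes sulphate from heparan sulphate, had 4 and 10, and MMP16, a membrane-bound metalloproteinase, had 2 and 6. ANGPT1 (107249482 to 107497918), the ligand of the TIE2 receptor, went the other way with 8 in Saos-2 and 2 in U2OS, none of them overlapped by the other line.

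Oncogenes and growth signalling genes lay in both kinds of window. Of 30, 15 had more in U2OS, 7 more in Saos-2 and 7 were equal, with a median difference of 0.5. These shares of 50% and 23.3% lay near the 50.3% and 15.8% of all genes of the chromosome. FGFR1 (38411143 to 38468635), a fibroblast growth factor receptor, had 1 Saos-2 and 8 U2OS hotspots, 7 of the latter U2OS-specific. NRG1, which encodes the ERBB ligand neuregulin, had 8 and 17. TRIB1 (125430358 to 125438403), a pseudokinase gene, had 3 and 8, and the strongest hotspot at its lower-coordinate end reached 18.3 for Saos-2 and 37.3 for U2OS in significance. TPD52 had 2 and 7. On the side of Saos-2, PVT1 (127794524 to 128101256) had 29 and 23, and NCOA2, a nuclear receptor coactivator, had 10 and 6. Of the PVT1 hotspots 10 were Saos-2-specific and 2 U2OS-specific. MYC itself, named for its place beside PVT1, had 3 and 4, and the strongest hotspot at its lower-coordinate end reached 2.65 and 6.46 in significance.

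DNA replication and genome maintenance genes differed little in total, with 60 Saos-2 and 64 U2OS hotspots. Gene-end hotspots of each line were present at 20 of 24 genes, of U2OS alone at 2 and of Saos-2 alone at 0. In shares these are 83.3%, 8.33% and 0%, beside 38.3%, 17.9% and 2.66% of all genes of the chromosome. The median difference was 0, with 11 genes higher in U2OS, 4 in Saos-2 and 8 equal, or 45.8% and 16.7% in the unequal directions beside 50.3% and 15.8%. RAD54B, a recombination helicase, had 4 Saos-2 hotspots and 1 U2OS hotspot. NSMCE2, a SUMO ligase of the SMC5/6 complex, had 15 and 12. TONSL, which acts in replication-fork repair, had 0 and 2. DSCC1, of the cohesion clamp loader, had 3 and 5, and RECQL4, a RecQ helicase, had 2 and 4. The strongest RECQL4 hotspot reached a −log10 significance of 5.68 in Saos-2 but only 1.96 in U2OS. The strongest TONSL hotspot, of U2OS, reached 3.00.

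Genes of 8p that restrain growth, listed with the death receptors, leaned to U2OS as a set, as their arm did. Of 20, 12 (60%) had more in U2OS, 2 (10%) more in Saos-2 and 3 were equal, with a median difference of 1.5 and totals of 29 and 92 hotspots. Over all 292 genes of 8p, 141 (48.3%) had more in U2OS and 26 (8.90%) more in Saos-2, with a median difference of 0. Of these 292 genes 33 had equal numbers and 92 had no hotspot in either line, whereas 3 of the 20 had none. Genes without hotspots lower the shares and the median of the arm, so no stronger lean of the list is read from them. DLC1 (13083361 to 13604620), a growth-restraining gene of this arm, had 7 in Saos-2 and 26 in U2OS, 22 of them U2OS-specific. CSMD1 (2935361 to 4994914), a very long gene of the 8p end, had 0 and 12. MSRA, which repairs oxidised methionine, had 2 and 13, BIN3 had 0 and 5, PINX1, a telomerase inhibitor, had 2 and 6, and PDLIM2 had 2 and 5. DLC1, CSMD1 and MSRA are long and weigh heavily in the totals. In the TNFRSF10 cluster of death receptor genes, TNFRSF10B had 3 and 1, TNFRSF10A and TNFRSF10D each had 0 and 1, and TNFRSF10C had none. This cluster showed no clear lean. A gene-end hotspot was present in both lines at 3 of the 20 (15%), beside 21.2% of all 8p genes.

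Genes of other tissues mostly lacked gene-end sites. Of 35, 29 (82.9%) had none, 3 (8.57%) had one in both lines and 3 in U2OS alone, beside 41.1%, 38.3% and 17.9% of all genes of the chromosome. Within 10 kb, 17 (48.6%) had more in U2OS and 3 (8.57%) in Saos-2, beside 50.3% and 15.8%, and 14 had no hotspot. KCNQ3 (132120861 to 132481095), a neuronal potassium channel gene, had 2 in Saos-2 and 14 in U2OS. ADCY8, a brain adenylyl cyclase, had 2 and 9, and STMN4, a neuronal stathmin, had 0 and 4. GATA4, a cardiac and endodermal transcription factor, had 1 and 5, and CNGB3, a cone photoreceptor channel, had 3 and 5. TG, the thyroglobulin gene, near KCNQ3, was opposite with 22 in Saos-2 and 14 in U2OS.

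The leading windows held further genes with large differences. From 25 to 30 Mb EXTL3, of heparan sulphate synthesis, had 3 Saos-2 and 13 U2OS hotspots, and SCARA5, a ferritin receptor, had 1 and 9. TRAPPC9 (139727725 to 140458579), of vesicle trafficking, which begins in the window from 135 to 140 Mb and extends into the last, had 7 and 19 over its whole length. In the last window CYC1, of respiratory complex III, and its neighbour SHARPIN, of the linear ubiquitin ligase, shared the same 1 and 6. From 80 to 85 Mb RALYL had 1 and 13, and PAG1, a membrane adaptor of Src-family kinases, had 4 and 10. In the windows with the lowest excess, SLC20A2, a phosphate transporter, had 10 in Saos-2 and 3 in U2OS and FNTA had 5 and 2. CPQ had 12 and 7, MATN2, a matrilin of the matrix, had 14 and 10, SNTB1 had 15 and 10, and MRPL13 had 4 and 2.

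Some genes were covered within 10 kb of their ends in 1 line only. In U2OS the leading ones were PPP1R3B, a glycogen-targeting phosphatase subunit, with 1626 bp, STMN4 with 1438 bp, GSDMD, the pore-forming protein of pyroptosis, with 1374 bp, and PNOC, the nociceptin precursor, with 1344 bp. In Saos-2 they were FAM86B1 with 550 bp, FAM86B2 with 446 bp, ANGPT1 with 423 bp and FSBP with 404 bp. The Saos-2 values were smaller than each of the U2OS values. FAM86B1 and FAM86B2 are near-identical copies, among which short reads can be misplaced, so both are uncertain. FSBP lies within RAD54B and shares its hotspots.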

How the data were processed

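The deposited file of each library is a list of hotspots at a false discovery rate of 0.05 on hg38, per the file names. Trimmomatic 0.38 and BWA 0.7.15 are named in the submitters' processing notes; the hotspot caller, filters and duplicate handling are not given in the sources used here. Each list gives 1 value per hotspot, taken as the deposited −log10 significance, since its lowest value was 1.30 and its cap 100. Lists were not pooled. Positions were joined to RefSeq gene spans (GRCh38.p14, 715 protein-coding genes on chromosome 8).

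Computed from these with Python 3.11.15, numpy 2.4.6, pandas 2.3.3 and scipy 1.17.1 were overlaps of at least 1 bp, gene-end classes, and counts by hotspot midpoint in 5 Mb windows, a tail under 1 Mb joining the last. Ratios were centred on the other autosomes and X. Counting code was tested on simulated intervals. No test was run with 1 library per line. The chromosome, the 5 gene lists and the markers were chosen with earlier results of these data known.

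Named were, per gene list, the 4 genes with the largest difference and up to 2 more with hotspots in both lines. Also named were 2 genes in each of the 5 highest and 3 lowest windows by excess, 5 unshared hotspots and 2 runs per line, and 4 genes per line covered in that line only. MYC, SARAF and other landmarks were named for position, and the death receptor genes for their place in a list heading. A gene that this rule names is not reported here. Alternatives covered merging, list length, overlap, gene-end distance, gene set, covered bases and windows. Nothing was left out except chromosome Y, which stays out of centring.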

Additional observations from a re-analysis of the deposited data

How the results depend on the processing

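No paired analysis was possible because each line had 1 library; none could be left out for the same reason. Of 57 values recomputed under alternatives, 40 stayed within the counting interval or 1.5 times the count, 17 moved and no ratio reversed. Reversal was defined for ratios only, so shares and window counts could not be marked so. With lists of equal length the Saos-2 list is unchanged, and its gene-end share stays the same by construction. The centred log2 ratio of 8p became 1.23 in the top 50% of each list and 1.08 for covered bases; those of the whole chromosome and of 8q stayed within their intervals. The overlapped share of Saos-2 hotspots was 56.6% with lists of equal length and 45.02% with 50% of both hotspots required. That of U2OS hotspots was 35.0% in the top 50%, 41.2% with equal lists and 27.4% with 50% required. The gene-end share in Saos-2 was 13.4% within 500 bp, 18.6% within 2.5 kb and 21.3% for all annotated genes. In U2OS it was 11.7%, 17.0% and 20.2% under those settings and 16.1% in the top 50%. Windows past the threshold numbered 14 of 30 when moved by 2.5 Mb, 33 of 67 at 2 Mb, and 9 of 29 at 2-fold, a threshold chosen after seeing the data. At 2 Mb the 5 leading windows held 25.97% of the positive excess, being shorter by construction. Depth is unknown and limits any reading of hotspot absence.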

Other observations

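The longest stretches of chromosome 8 without a Saos-2 hotspot all contained U2OS hotspots. They spanned 3.59 Mb from 2813009 to 6406563, across CSMD1, with 28 U2OS hotspots, 2.06 Mb from 82569085 to 84626256 with 17, and 2.01 Mb from 13367063 to 15378591 with 22. The longest stretch without a U2OS hotspot, 2.47 Mb from 43559804 to 46029567, includes the border of the arms and held 3 Saos-2 hotspots. The next U2OS gaps were 0.896 Mb with 2 Saos-2 hotspots and 0.830 Mb, from 7394554 to 8224355, with none. The last of these holds copies of defensin, FAM90A and USP17L genes, among which short reads can be misplaced. Read placement was not examined there or at the centromere, so absence of hotspots in both places is uncertain. The median gap was 27.1 kb in Saos-2 and 21.2 kb in U2OS on chromosome 8, and 25.01 and 24.2 kb elsewhere. Numbers in the 29 windows of chromosome 8 were less alike in rank between the lines (Spearman's coefficient 0.56) than in the 560 windows elsewhere (0.80), a description over windows of these libraries. The windows elsewhere pool all other chromosomes, and no other chromosome was compared alone. Whether chromosome 8 is unusual in this respect was therefore not tested.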
